A study of Mus musculus with 8 samples.

Results

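The 10 genes described here encode 6 S100 proteins (S100a4, S100a6, S100a8, S100a9, S100a10 and S100a11) and 4 annexins (Anxa1, Anxa2, Anxa3 and Anxa5). They were chosen by name with earlier results of these data known. All 10 were measured among 22180 named genes on mouse kidney arrays. The mice were aged 2 months and fell into 3 groups, and both mutant groups lack Col4a3, which encodes a chain of the collagen IV of the glomerular filter and whose loss models Alport syndrome. The groups were wild type (n = 2), Col4a3-/- (n = 3, called single mutant) and Col4a3-/-OPN-/- (n = 3, called double mutant), the last of which also lacks osteopontin, a secreted matrix protein and cytokine. Each array held total RNA of whole snap-frozen kidney, so fewer cells of a type and less RNA per cell cannot be told apart. The labels give both deletions as -/- and name no strain, sex or litter, and p-values measure only the spread between these arrays.

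S100 proteins are small calcium sensors that work mostly as dimers. On binding calcium through their EF-hand loops they open a surface that grips a partner protein, and several are also released from cells and act on receptors of innate immunity. Annexins bind membranes that expose acidic phospholipids when calcium rises, and they serve in membrane repair, vesicle traffic and the control of inflammation. The families meet in defined complexes, in which S100a10 holds a pair of Anxa2 molecules at the plasma membrane and S100a11 binds the amino-terminal tail of Anxa1. In injured kidney, S100a4 and S100a6 are known from fibroblasts and from dedifferentiating tubule cells, and S100a8 and S100a9 from neutrophils and monocytes.

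All 6 S100 genes lie on chromosome 3 (GRCm38.p6). S100a4, S100a6, S100a8 and S100a9 fall within 92 kb, from 90603770 to 90695721, and S100a11 and S100a10 sit side by side from 93520496 to 93564645, 2824.8 kb away from S100a9. The annexins are spread over the genome, with Anxa5 on chromosome 3 from 36448923 to 36475887, Anxa3 on chromosome 5 from 96793385 to 96845968, Anxa2 on chromosome 9 from 69453683 to 69491792 and Anxa1 on chromosome 19 from 20373434 to 20390671. RefSeq promoter windows, from 250 bases before to 50 after the start of transcription, were matched for 8 of the 10 genes and not for S100a10 and Anxa3. The 250 bases before the start are shown 5′ to 3′ for 4 genes, S100a6 and Anxa2 because they differed most clearly from wild type among those with a window, S100a11 because it is an annexin partner that did not, and S100a8 because it was near the floor of the arrays. Capitals mark the motifs searched.
S100a6, chr3:90612644-90612893, plus strand: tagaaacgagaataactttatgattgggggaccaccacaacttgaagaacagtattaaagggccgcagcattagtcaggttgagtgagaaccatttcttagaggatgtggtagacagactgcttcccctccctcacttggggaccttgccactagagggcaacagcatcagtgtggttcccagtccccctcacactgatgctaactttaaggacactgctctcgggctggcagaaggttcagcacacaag
Anxa2, chr9:69453433-69453682, plus strand: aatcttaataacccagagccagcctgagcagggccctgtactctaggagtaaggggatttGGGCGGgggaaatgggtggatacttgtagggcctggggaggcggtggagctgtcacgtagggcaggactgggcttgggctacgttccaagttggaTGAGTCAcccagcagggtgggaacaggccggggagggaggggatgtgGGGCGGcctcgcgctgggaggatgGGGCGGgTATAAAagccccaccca
S100a11, chr3:93520246-93520495, plus strand: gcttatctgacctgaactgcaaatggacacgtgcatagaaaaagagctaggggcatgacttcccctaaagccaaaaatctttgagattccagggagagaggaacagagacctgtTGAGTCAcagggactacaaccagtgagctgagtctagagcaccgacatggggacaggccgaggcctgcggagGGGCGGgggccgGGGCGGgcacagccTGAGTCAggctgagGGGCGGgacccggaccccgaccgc
S100a8, chr3:90668821-90669070, plus strand: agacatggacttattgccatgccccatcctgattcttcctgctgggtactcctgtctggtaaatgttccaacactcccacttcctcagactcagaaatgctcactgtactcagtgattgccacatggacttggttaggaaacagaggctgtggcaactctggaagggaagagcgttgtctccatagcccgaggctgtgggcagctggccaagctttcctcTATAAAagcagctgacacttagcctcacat

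The motifs were AP-1 (TGANTCA), TEAD (GGAATG), Sp1 (GGGCGG) and the TATA box (TATAAA), searched on both strands of the whole 300-base window. The AP-1 motif occurred in 2 of 8 genes, in Anxa2 at base -95 and in S100a11 at bases -136 and -38, and 7.81% of 32851 windows of this length hold it. The Sp1 motif occurred in 3 of 8 (Anxa2, S100a11 and S100a9) against 35.7% of all windows, and the TEAD motif in 1 of 8, Anxa1, against 14.7%. The TATA box occurred in 5 of 8 against 13.6% of all windows, and began at base -30 in S100a8, -31 in S100a4, -32 in Anxa1, -17 in Anxa2 and 1 in S100a9. The window of S100a6 held none of these letters, and no motif overlapped another in the 4 stretches shown. A match of letters is a description of the sequence and not a site of binding.

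The deposited values are on a log2 scale, on which 1 unit is a factor of 2 in signal, and array medians lay between 5.18 and 5.25. Kidney identity was plain, since proximal tubule markers averaged between 9.83 and 11.49 on all 8 arrays. The probe set of the targeted gene Col4a3 averaged 8.60 ± 0.25 in wild type (SD, n = 2), 7.31 ± 0.61 in the single mutant (SD, n = 3) and 6.85 ± 0.74 in the double mutant (SD, n = 3). The labels give no sex, but Xist, high on 4 arrays, and 3 genes of the Y chromosome (Uty, Kdm5d and Eif2s3y), high on the other 4, separated female from male. Both wild type mice were male, and males were single mutant 2 and double mutant 3. Comparisons were made in limma with 1 model of the 3 groups, and then with a term for sex added, which assumes the same sex difference in each group and is estimated in the mutants alone. Sex and any other trait shared by the 2 male mutants cannot be told apart, because each was the only male of its group. No wild type female was measured, so the sex difference in wild type is assumed. Genes were tested if their mean over the 8 arrays exceeded 6.64, the 75th percentile of all probe sets, and were called at an adjusted p under 0.05 (Benjamini-Hochberg over all 7145 tested genes). All adjusted p-values given are from limma, and those of fits without the filter are adjusted over all 22180 genes. Of the 10 genes 7 passed this filter, and S100a4, S100a8 and S100a9 did not.

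**Figure D1:**
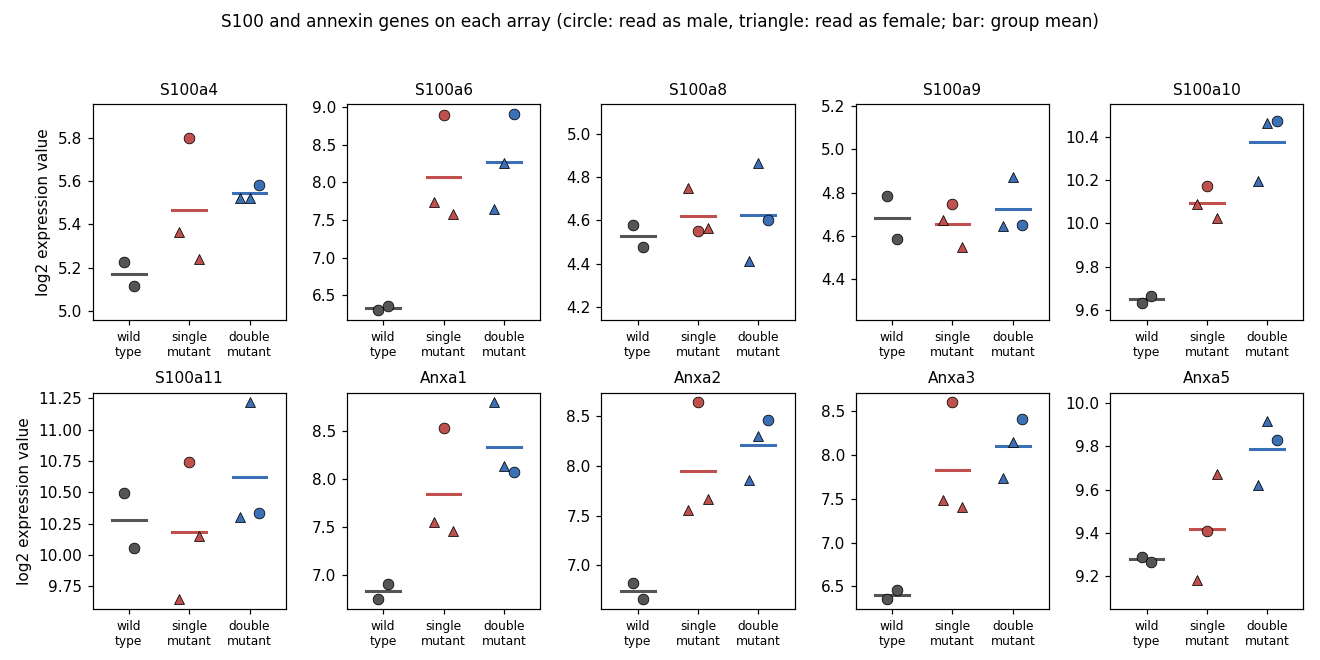
Log2 expression values (y axis, a separate range in each panel) of the 10 genes on each array, by group (x axis). Circles are arrays read as male, triangles arrays read as female and bars group means. All mutant arrays lie above both wild type arrays for S100a4, S100a6, S100a10, Anxa1, Anxa2 and Anxa3, while S100a8, S100a9 and S100a11 overlap.

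The 2 male mutants had the highest S100a6 and the females were intermediate. S100a6, also named calcyclin, is a calcium sensor of proliferating and stressed cells. It measured 6.30 and 6.36 in wild type, 7.73, 8.89 and 7.58 in single mutants 1 to 3, and 7.65, 8.25 and 8.91 in double mutants 1 to 3. No mutant array overlapped the wild type arrays. The mean of the single mutant was 1.74 above wild type (SE 0.45, adjusted p = 0.115), a 3.34-fold difference that did not pass. For the double mutant the excess was 1.94 (SE 0.45, adjusted p = 0.0801), 3.84-fold, which did not pass either. Once sex was a term, S100a6 rose by 2.47 (SE 0.22, adjusted p = 0.00532) in the single and by 2.67 (SE 0.22, adjusted p = 0.00406) in the double mutant, folds of 5.55 and 6.38. In that fit it ranked 7 of 7145 genes by p in the single mutant and 5 in the double mutant. S100a6 passed the filter only through its mutant arrays, which favours such ranks. Without the filter its adjusted p with the sex term was 0.0222 in the single and 0.021 in the double mutant. The fitted female minus male difference of S100a6 was -1.10 (SE 0.18, adjusted p = 0.0137). Among males alone, with 1 mouse per mutant, single mutant 2 exceeded the wild type mean by 2.56 and double mutant 3 by 2.58.

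S100a4 belongs to the same short stretch of chromosome 3. It is known as fibroblast-specific protein 1, and it also marks some leukocytes. It measured 5.23 and 5.12 in wild type, 5.36, 5.80 and 5.24 in single mutants 1 to 3, and 5.52, 5.52 and 5.58 in double mutants 1 to 3. Every mutant value was above both wild type values, narrowly so for single mutant 3, and single mutant 2 stood highest. Its mean of 5.42 over the 8 arrays was below the filter. Fitted without the filter, S100a4 was 0.29 above wild type in the single mutant (SE 0.16, adjusted p = 0.437) and 0.37 above in the double mutant (SE 0.16, adjusted p = 0.355), and neither passed with the sex term (adjusted p = 0.092 and 0.07).

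S100a8 and S100a9, which together form calprotectin, the abundant calcium-binding complex of neutrophils, lay at the low end of the arrays in every group. S100a8 measured 4.58 and 4.48 in wild type, 4.75, 4.55 and 4.56 in single mutants and 4.41, 4.87 and 4.60 in double mutants. S100a9 measured 4.78 and 4.58 in wild type, 4.67, 4.75 and 4.55 in single mutants and 4.65, 4.87 and 4.65 in double mutants. The groups overlapped for both genes, and all 8 arrays had them below the median of all probe sets on the array. Fitted without the filter, S100a8 differed by 0.10 in the single mutant (95% interval -0.23 to 0.42) and by 0.10 in the double mutant (95% interval -0.23 to 0.43). S100a9 differed by -0.03 (95% interval -0.28 to 0.22) and 0.04 (95% interval -0.21 to 0.29). Probe sets this low on an array may register a difference only in part. Neutrophil markers were low as well: of 12 listed, such as Ly6g, Ngp and Mpo, all 12 were measured and 0 passed the filter, and their mean ran from 4.80 to 4.83 in wild type, 4.81 to 4.91 in single and 4.84 to 4.97 in double mutants.

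The annexin partners S100a10 and S100a11 lie next to each other, and whether their differences from wild type are unequal was not tested. S100a10, also named p11, lacks working calcium loops and is held ready to bind Anxa2. It measured 9.63 and 9.66 in wild type, 10.09, 10.17 and 10.02 in single mutants and 10.19, 10.46 and 10.47 in double mutants. The 3 groups did not overlap, with wild type lowest and the double mutant highest. S100a10 was 0.45 above wild type in the single mutant (SE 0.14, adjusted p = 0.132) and 0.73 above in the double mutant (SE 0.14, adjusted p = 0.0688), and neither passed. In the fit with sex it rose by 0.53 (SE 0.15, adjusted p = 0.0336), 1.45-fold, and by 0.81 (SE 0.15, adjusted p = 0.0125), 1.76-fold. Its call in the single mutant was lost when any 1 array other than double mutant 2 was left out, with adjusted p from 0.0511 to 0.177. S100a11, also named calgizzarin, measured 10.50 and 10.06 in wild type, 9.65, 10.75 and 10.15 in single mutants and 10.31, 11.22 and 10.34 in double mutants. The groups overlapped, and double mutant 2 was highest. Its difference was -0.09 in the single mutant (SE 0.38, adjusted p = 0.896) and 0.34 in the double mutant (SE 0.38, adjusted p = 0.614), and neither passed. The sign of the first value turned after quantile normalization (0.06), after cyclic loess (0.01) and with the sex term (0.05), so no direction is given. The double mutant value was 0.04 without double mutant 2, and with the sex term it was 0.48, or 1.33 without double mutant 3. A pseudogene, S100a11-ps, has its own probe set with means of 6.50, 6.12 and 6.66 in wild type, single and double mutants, and whether its probes share sequence with those of S100a11 was not tested.

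**Figure D2:**
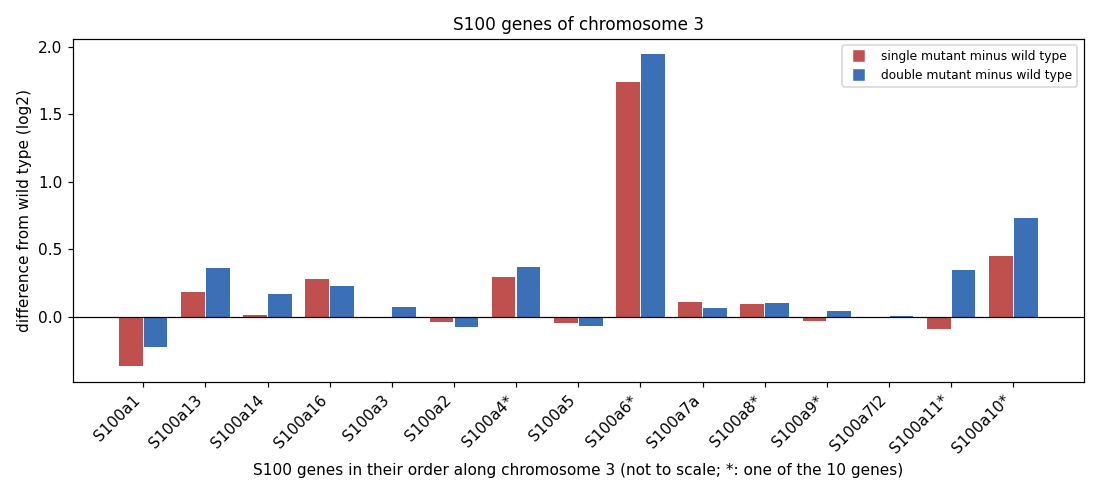
Difference from wild type on the log2 scale (y axis) for the 15 measured S100 genes of chromosome 3, in their order along the chromosome but not to scale (x axis), for single and double mutants. S100a6 stands above all the others at 1.74 and 1.94, while its neighbours S100a5 and S100a7a lie between -0.07 and 0.11.

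The genes beside S100a6 gave small differences, but both are low on the arrays, S100a5 near the level of S100a8 and S100a7a with a wild type mean of 5.30, so a difference could register only in part. S100a5, which ends 1.1 kb before S100a6 begins, gave differences of -0.04 and -0.07 in single and double mutants, and S100a7a, 37.5 kb on the other side, gave 0.11 and 0.07. Of 12 other S100-named genes listed for comparison (S100a1, S100a2, S100a3, S100a5, S100a7a, S100a13, S100a14, S100a16, S100b, S100g, S100z and S100pbp), all 12 were measured and 4 passed the filter. Without the sex term 0 were called in either comparison with wild type, and 0 had an unadjusted p under 0.05. With it S100g, a calbindin of calcium-transporting tubule cells, fell by 1.001 in the single mutant (SE 0.17, adjusted p = 0.0102) and by 0.90 in the double mutant (SE 0.17, adjusted p = 0.0136), and S100a1 fell by 0.70 in the single mutant (SE 0.19, adjusted p = 0.031). With the sex term 2 of 4 tested genes were thus called lower in the single and 1 of 4 in the double mutant, against 19.9% and 17.8% of all tested genes. Over the 12 genes the median difference without the sex term was 0.0044 for the single and 0.07 for the double mutant. For the 4 tested genes with that term it was -0.32 and -0.23, against -0.15 over all tested genes in both.

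Anxa1, the annexin that limits leukocyte entry as a mediator of glucocorticoid action, had its highest value in a female double mutant. It measured 6.74 and 6.91 in wild type, 7.55, 8.53 and 7.46 in single mutants and 8.80, 8.14 and 8.07 in double mutants. All mutants lay above wild type, all double mutants lay above the 2 female single mutants, and double mutant 1 alone lay above the male single mutant. Its single mutant mean was 1.02 above wild type (SE 0.35, adjusted p = 0.153), and the value of 1.23 with the sex term did not pass either (adjusted p = 0.0532). It passed there with cyclic loess (1.34, adjusted p = 0.0413) or quantile normalization (1.35, adjusted p = 0.042), and without double mutant 1 (1.40, adjusted p = 0.0255) or double mutant 3 (1.71, adjusted p = 0.0057). Without single mutant 2 the value was 0.28. In the double mutant the excess was 1.51 (SE 0.35, adjusted p = 0.0798), and with sex in the fit Anxa1 rose by 1.72 (SE 0.39, adjusted p = 0.0215), 3.31-fold. That call was lost without wild type 1 (adjusted p = 0.076), without wild type 2 (adjusted p = 0.0935) and without the filter (adjusted p = 0.0747), and the value was 2.68 without double mutant 3.

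Anxa2 and Anxa3 followed nearly the same course over the arrays as S100a6. Anxa2 links membranes to actin and, at the cell surface, gathers plasminogen and its activator. It measured 6.83 and 6.66 in wild type, 7.56, 8.64 and 7.67 in single mutants and 7.86, 8.30 and 8.46 in double mutants. All mutants were above wild type, with single mutant 2 highest. The differences of 1.21 (SE 0.33, adjusted p = 0.121) and 1.46 (SE 0.33, adjusted p = 0.077) did not pass. In the fit with the term for sex, Anxa2 rose by 1.68 in the single mutant (SE 0.23, adjusted p = 0.00759) and by 1.93 in the double mutant (SE 0.23, adjusted p = 0.00619), folds of 3.20 and 3.82.

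Anxa3 encodes an annexin first described as an inhibitor of phospholipase A2. It measured 6.35 and 6.46 in wild type, 7.48, 8.60 and 7.41 in single mutants and 7.74, 8.15 and 8.41 in double mutants. The mutants were again all above wild type, and the male was the highest of each mutant group. The differences were 1.42 (SE 0.36, adjusted p = 0.115) and 1.69 (SE 0.36, adjusted p = 0.0762), and neither passed. Anxa3 rose, with the sex term, by 1.96 (SE 0.23, adjusted p = 0.00629) and by 2.23 (SE 0.23, adjusted p = 0.00443), folds of 3.90 and 4.70. It too passed the filter only through its mutant arrays, and without the filter these adjusted p-values were 0.0223 and 0.021. The fitted female minus male difference of Anxa3, -0.81 (SE 0.19, adjusted p = 0.0366), passed, while that of Anxa2 at -0.71 (adjusted p = 0.054) did not.

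Anxa5, the annexin used as a probe for dying cells because it binds exposed phosphatidylserine, varied least among the annexins. It measured 9.29 and 9.27 in wild type, 9.18, 9.41 and 9.67 in single mutants and 9.62, 9.92 and 9.83 in double mutants. Single mutants overlapped wild type and double mutants did not. The differences were 0.14 (SE 0.17, adjusted p = 0.622) and 0.51 (SE 0.17, adjusted p = 0.149). The second was 0.53 with the sex term (adjusted p = 0.0903), and it passed when cyclic loess (0.70, adjusted p = 0.0416) or quantile normalization (0.75, adjusted p = 0.0347) was added to that term.

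**Figure D3:**
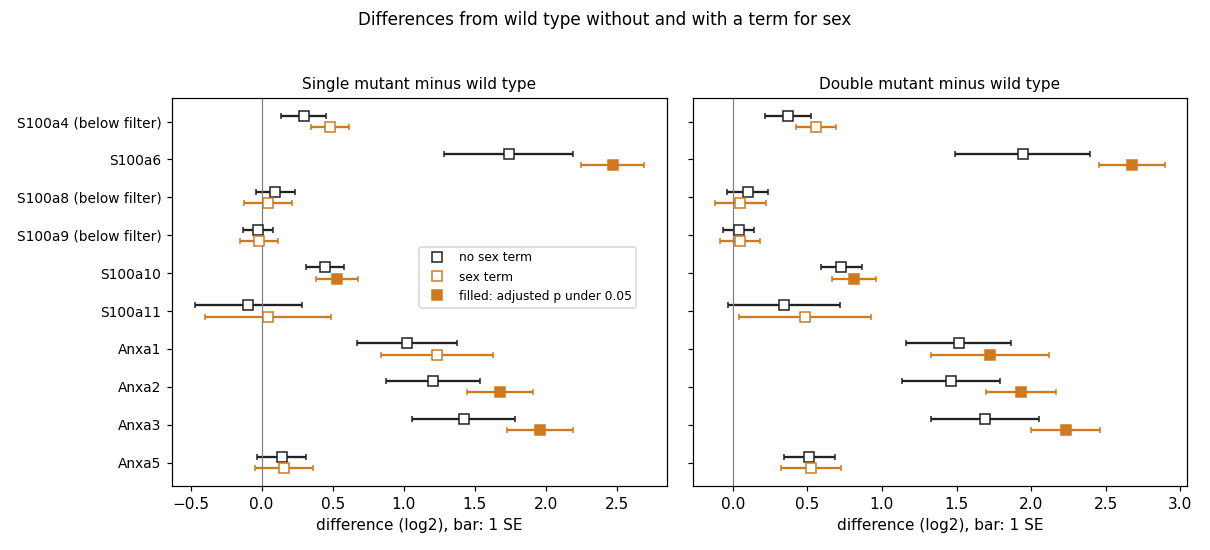
Differences from wild type (x axis, log2, bars 1 SE) of the 10 genes (y axis) in single and double mutants, from the fit without (black) and with (orange) a term for sex. Filled squares have an adjusted p under 0.05; they number 4 in the single and 5 in the double mutant, all with the sex term, and the 3 genes below the filter are drawn from fits without it.

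Counted together, 0 of 7 tested genes were called against wild type in either mutant without the sex term, where 0.028% of all tested genes were called for the single and 0.084% for the double mutant. Of the 7, 5 had an unadjusted p under 0.05 in the single mutant, as did 23.2% of all tested genes, and 6 of 7 in the double mutant, as did 21.6%. With the sex term 4 of 7 were called higher in the single mutant (S100a6, S100a10, Anxa2 and Anxa3), where 7.31% of tested genes were called higher and 27.2% in either direction. In the double mutant 5 of 7 were called higher, the same 4 and Anxa1, where 6.4% were called higher and 24.2% in either direction. Mutant arrays all lay above both wild type arrays in 6 of 10 genes for the single mutant, against 15.5% of all measured genes, and in 7 of 10 for the double mutant, Anxa5 added, against 15%. The median difference of the 7 tested genes was 1.02 in the single mutant and 1.46 in the double mutant, against -0.07 and -0.08 over all tested genes. S100a6 and Anxa3, with wild type means of 6.33 and 6.41, passed the filter of 6.64 only through their mutant arrays, which favours such medians and counts. Over all 10 measured genes the medians were 0.37 and 0.62, against -0.0091 and -0.0115 over all measured genes. The 2 comparisons share their wild type arrays. Because the genes were chosen with earlier results of these data known, these counts describe the set and do not test it.

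These counts rested on few arrays. The single mutant comparison with the sex term called 0 of 7 without single mutant 2, its 1 male, when S100a6 differed by 2.29 (adjusted p = 0.0583), Anxa3 by 1.50 (adjusted p = 0.0643), Anxa2 by 1.25 (adjusted p = 0.0762) and S100a10 by 0.55 (adjusted p = 0.177). Without wild type 2 it called 2 of 7, S100a6 and Anxa3, and the double mutant comparison called the same 2. Without the sex term, leaving out single mutant 2 gave 5 of 7 called in the double mutant, S100a6 among them at 1.94 (adjusted p = 0.0167), and a fit of the double mutant and wild type arrays alone also gave 5. The sex term shifted the median of all tested genes to -0.15 in both comparisons, and to -0.04 in both after cyclic loess. Relative to the shift of -0.15, S100a6 differed by 2.62 and 2.82, Anxa3 by 2.11 and 2.38, Anxa2 by 1.83 and 2.08 and S100a10 by 0.68 and 0.96 in single and double mutants. Cyclic loess with the sex term called 814 genes higher and 1029 lower in the single mutant, against 522 and 1424 as deposited, and 709 higher and 851 lower in the double mutant, against 457 and 1271.

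The double mutant was set against the single mutant to ask whether these genes differ in an Alport kidney without osteopontin. All 10 means were higher in the double mutant, by 0.0037 for S100a8 to 0.49 for Anxa1, and 0 of 7 tested genes were called with or without the sex term. Of all 7145 tested genes, 3601 had a higher mean in the double mutant. So had all 15 macrophage, all 11 fibroblast and all 11 injured tubule markers of the lists below. The same held for 8 of 10 proximal tubule, 3 of 5 endothelium and 1 of 4 podocyte markers. In limma 0 of all 7145 tested genes (0%) were called, and 104 (1.46%) had an unadjusted p under 0.05. Of the 7 genes 2 did so, S100a10 at 0.28 (95% interval 0.0014 to 0.56, unadjusted p = 0.0491) and Anxa5 at 0.37 (95% interval 0.01 to 0.73, unadjusted p = 0.0431), with an adjusted p of 1 for each. The intervals were -0.73 to 1.14 for S100a6, -0.34 to 1.22 for S100a11, -0.23 to 1.22 for Anxa1, -0.43 to 0.94 for Anxa2 and -0.48 to 1.02 for Anxa3. S100a10 was the only one of the 10 whose single and double mutant arrays did not overlap, where 3.32% of all measured genes did so with the double mutant higher.

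**Figure D4:**
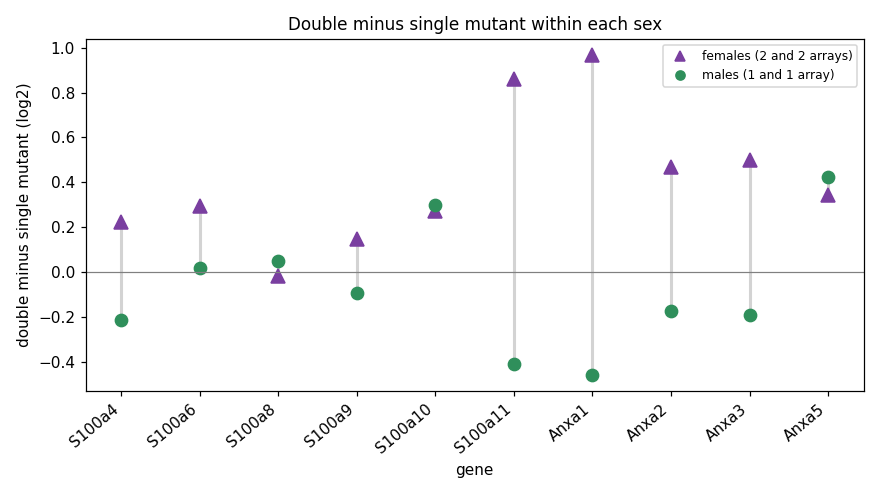
Double minus single mutant on the log2 scale (y axis) for the 10 genes (x axis), in females (triangles, means of 2 and 2 arrays) and males (circles, 1 array each). Anxa1 and S100a11 are furthest apart, at 0.97 and 0.86 in females and -0.46 and -0.41 in males, while S100a6, S100a10 and Anxa5 are positive in both.

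The direction between the mutants was not shared by the sexes for part of the genes. For S100a4, S100a11, Anxa1, Anxa2 and Anxa3 both female double mutants lay above both female single mutants, while the 1 male double mutant lay below the 1 male single mutant. This pattern held in 5 of 10 genes, against 12.6% of all measured genes. The female difference was 0.97 and the male difference -0.46 in Anxa1. S100a10 was higher in the double mutant in both sexes, by 0.27 in females and 0.30 in males, as were Anxa5, by 0.34 and 0.42, and S100a6, by 0.29 and 0.02. The test of sex against mutant called 0 of 7 genes and 0 of all 7145, with 913 of these at an unadjusted p under 0.05, and Anxa1 came closest of the 7 (adjusted p = 0.174).

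**Figure D5:**
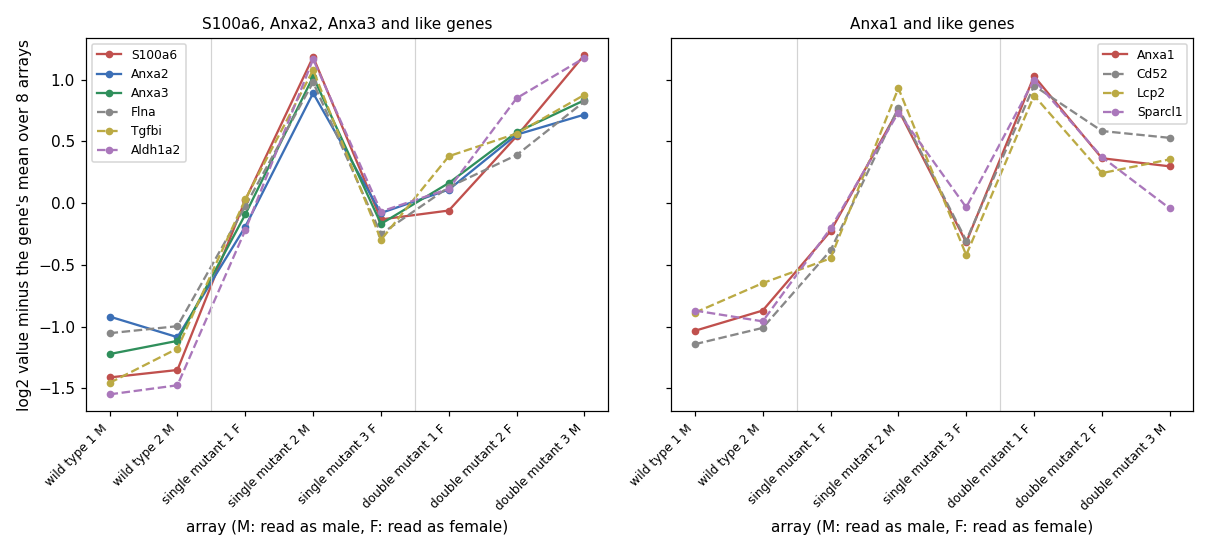
Log2 value minus the gene's own mean over 8 arrays (y axis) on each array (x axis, M male and F female), for S100a6, Anxa2 and Anxa3 with the like genes Flna, Tgfbi and Aldh1a2 (left) and for Anxa1 with Cd52, Lcp2 and Sparcl1 (right). Lines join the values of a gene and carry no order; single mutant 2 peaks in the left panel together with double mutant 3, and double mutant 1 is the highest array for Anxa1, Cd52 and Sparcl1 in the right panel.

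Likeness of pattern was measured as the root mean square difference of values over the 8 arrays after each gene was centred on its own mean, so that 0 means the same course, with group and sex shared by all genes. Only the 7 of the 10 genes that passed the filter were compared. Among them, Anxa2 and Anxa3 were nearest to each other at 0.13 log2 units, and S100a6 was nearest to Anxa3 at 0.20. These are small beside the genes' own root mean square variation of 0.68 in Anxa2, 0.78 in Anxa3 and 0.93 in S100a6. S100a10 and Anxa5 were nearest to each other at 0.19, which is most of their own variation of 0.30 and 0.26. Outside them, the nearest tested gene to both Anxa2 (0.13) and Anxa3 (0.11) was Flna, which encodes the actin crosslinker filamin A. Anxa2 went on with Bmp1 (0.14), a protease that matures collagen, and Tagln (0.15), an actin-binding protein of smooth muscle. Anxa3 went on with Tgfbi (0.13), a matrix protein induced by TGF-beta, and Sulf1 (0.17). S100a6 was nearest to Aldh1a2 (0.17), which makes retinoic acid, then to Tgfbi (0.215) and Myof (0.25). Anxa1 was nearest to Cd52 (0.14), a leukocyte surface peptide, Lcp2 (0.16), a signalling adaptor of leukocytes, and Sparcl1 (0.17). S100a10 was nearest to the integrin chain Itgav (0.09), Mcl1 (0.10) and Vcl (0.10), S100a11 to Rela (0.18), 1700017B05Rik (0.22) and Rbpms (0.23), and Anxa5 to Sema3f (0.10), Mcam (0.12) and Tnfrsf1a (0.12).

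Genes that work with the 10 were counted from a list of 15 receptors and partners, of which 14 were measured and 10 passed the filter. Without the sex term 0 of 10 were called in either mutant, and 4 and 5 had an unadjusted p under 0.05. With it 4 were called higher and 2 lower in the single mutant, where 7.31% of tested genes were called higher and 19.9% lower. In the double mutant 4 were called higher and 1 lower, against 6.4% and 17.8%. Myh9, the nonmuscle myosin bound by S100a4, rose by 1.61 in the single mutant (SE 0.16, adjusted p = 0.00572) and by 1.63 in the double mutant (SE 0.16, adjusted p = 0.00407). Ahnak, the scaffold that holds the S100a10 and Anxa2 complex, rose by 1.58 and 1.51, Plat, the plasminogen activator that this complex binds, by 0.80 and 1.002, and Dysf, a membrane repair protein that binds annexins, by 0.71 and 0.83. Bsg, a receptor of S100a9, fell by 0.54 and 0.52, and Cacybp, the calcyclin-binding protein, fell by 0.96 in the single mutant and lay at -0.71 in the double mutant without passing (adjusted p = 0.099). Of the other annexins 7 of 8 were measured and 3 passed the filter. Anxa6 alone was called among these in the fit with sex, rising by 0.81 in the double mutant (SE 0.20, adjusted p = 0.028). In that fit the median of the 3 was -0.12 in the single and 0.0009 in the double mutant. Without the sex term, Anxa4 and Anxa7 lay between -0.12 and 0.24 from wild type, values not on a like basis with that of Anxa6. Anxa13, an annexin of epithelia that did not pass the filter, averaged 6.20 in wild type, 5.41 in the single and 5.59 in the double mutant.

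Markers of several other cell types also differed between mutant and wild type arrays. Of 15 macrophage and monocyte markers all 15 were measured and 15 had means above wild type in both mutants, and their mean ran from 6.01 to 6.15 in wild type, 6.86 to 8.31 in single and 7.67 to 7.94 in double mutants. In single mutants the macrophage mean was highest in single mutant 2, as S100a6, Anxa2 and Anxa3 were. The array highest for these 3 genes in double mutants was double mutant 3, the only male there, as single mutant 2 was in its group. Its macrophage mean of 7.67 was the lowest of the double mutants, close to 7.72 in double mutant 1. Double mutant 3 was also the lowest double mutant for the fibroblast, podocyte, endothelium, loop of Henle, distal tubule, collecting duct and lymphocyte means. It was not the lowest for the proximal tubule and neutrophil means. Of 11 fibroblast and pericyte markers 11 lay above wild type in both mutants, with means from 6.78 to 6.87, 7.72 to 8.88 and 8.20 to 8.67. Of 11 markers of injured tubule 9 lay above wild type in the single and 10 in the double mutant, with means from 6.35 to 6.59, 7.02 to 8.33 and 7.57 to 8.59. Within each mutant group the injured tubule mean was highest in single mutant 2 and in double mutant 3, as S100a6, Anxa2 and Anxa3 were. All 10 proximal tubule markers lay below wild type in both, with means from 11.43 to 11.49, 9.83 to 11.24 and 10.70 to 11.06. Lymphocyte markers, 7 of 8 measured, had means of 5.05 on both wild type arrays, 5.13 to 5.38 in single and 5.31 to 6.15 in double mutants, the highest reached in double mutant 1, in which Anxa1 was highest. Means of the podocyte, endothelium, loop of Henle and collecting duct lists overlapped wild type in both mutants. Distal tubule means ran from 9.64 to 9.75 in wild type, 8.92 to 9.49 in single mutants and 8.48 to 9.78 in double mutants. Those of single mutants thus all lay below wild type. With the sex term 8 of 9 tested macrophage, 6 of 9 fibroblast and 4 of 8 injured tubule markers were called higher in the single mutant. There 6 of 10 proximal tubule markers were called lower, and of all tested genes 7.31% were called higher and 19.9% lower. In the double mutant the counts were 8 of 9, 6 of 9, 7 of 8 and 5 of 10, against 6.4% higher and 17.8% lower. In each mutant 1 of 2 tested distal tubule, 1 of 3 loop of Henle, 1 of 5 endothelium and 0 of 2 podocyte markers were called lower. Of 3 collecting duct markers 0 were called lower in the single and 2 in the double mutant. The part of these cell types in the S100 and annexin differences was not tested.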

How the data were processed

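Whole-kidney RNA of 8 mice was labelled with a FlashTag biotin kit and hybridised to 1 array each, per the labels' protocols. The deposited values are log2 expression values that the authors had already processed, 1 per probe set and array. Their background correction and normalization are not given in the labels, and the log2 scale was read from the range of 4.20 to 13.43. Of 33793 probe sets 23521 named 1 gene, and the brightest probe set stood for each of 22180 genes; each S100 and annexin gene had 1.

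Comparisons used limma 3.58.1 in R 4.3.3 (lmFit and eBayes, two-sided), with 1 model of 3 groups (5 residual degrees of freedom) or with sex added (4), on 7145 genes whose mean was higher than 75% of all probe sets. The fit without the sex term was tested on simulated data for the double against the single mutant. The fit with the sex term and the comparisons with wild type were not simulated. Sex was read from the arrays. Alternatives covered the filter, normalization, array weights, the groups fitted, the replicate number and each array left out. The 10 genes and all lists were chosen with earlier results of these data known. All 10 genes are described, and the called genes of the lists of other S100 genes, other annexins and partners are named; cell type markers are given as counts and means. Promoter sequences came from RefSeq tables of GRCm38.p6. Figures were drawn with matplotlib 3.10.9. The osteopontin gene and protein sequences were not analysed here.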

Additional observations from a re-analysis of the deposited data

Results flagged for a closer look

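For 5 genes the double mutant was above the single mutant on all female arrays and below it in the 1 male pair, a pattern that 12.6% of all measured genes showed. The female difference minus the male difference was 1.4267 for Anxa1 (SE 0.39, adjusted p = 0.174 in limma), the largest of them. It was 1.2716 for S100a11 (adjusted p = 0.411), 0.68888 for Anxa3 (adjusted p = 0.38) and 0.64134 for Anxa2 (adjusted p = 0.449). It was 0.4364 for S100a4, which lies below the filter (adjusted p = 0.308 without the filter). None of the 5 passed, and with 1 male in each mutant group the male value has no replicate.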

How the results depend on the processing

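For the single mutant against wild type, 2 genes and 0 of the 7 were called as fitted. No filter called 7 genes and 0 of the 7, a filter at the 50th percentile 2 and 0, array weights 807 and 3, and the 2 compared groups alone 0 and 0. Fits with the sex term called 1946 genes and 4 of the S100 and annexin genes, 1532 and 4 without the filter, 1850 and 5 after quantile normalization, 2010 and 4 after median centring, and 1843 and 5 after cyclic loess. Leaving out 1 array at a time gave 0 to 4 genes and 0 to 0 of the 7, and 0 to 2147 genes and 0 to 4 with the sex term, where the counts of genes were 1160 without wild type 1, 66 without wild type 2, 1705 without single mutant 1, 0 without single mutant 2, 1772 without single mutant 3, 1596 without double mutant 1, 1627 without double mutant 2 and 2147 without double mutant 3.

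For the double mutant against wild type, 6 genes and 0 of the 7 were called as fitted. No filter called 10 genes and 0 of the 7, a filter at the 50th percentile 16 and 0, array weights 1272 and 5, and the 2 compared groups alone 344 and 5. Fits with the sex term called 1728 genes and 5 of the S100 and annexin genes, 1387 and 4 without the filter, 1554 and 6 after quantile normalization, 1894 and 5 after median centring, and 1560 and 6 after cyclic loess. Leaving out 1 array at a time gave 0 to 590 genes and 0 to 5 of the 7, and 70 to 1635 genes and 2 to 5 with the sex term, where the counts of genes were 870 without wild type 1, 70 without wild type 2, 1635 without single mutant 1, 1167 without single mutant 2, 1198 without single mutant 3, 1257 without double mutant 1, 1332 without double mutant 2 and 1457 without double mutant 3.

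With the replicate number as a block, 0 and 0 genes were called, and 0 of the 7 in each comparison. Deviations of same-numbered mutant arrays correlated at 0.26, -0.34 and -0.58. The first pair was of like sex and the others of unlike sex, so these values cannot show whether equal numbers are paired. The labels name no litter, and the numbers were not taken to pair the samples. The double mutant against the single mutant gave 0 calls under every setting run. No difference that was called in any setting had the opposite sign to its value as fitted, and the causes of the differing counts were not tested. With 2 wild type arrays, both male, precision is limited by the number of arrays, and S100a4, S100a8 and S100a9 lay below the filter. They were not called in the fits that kept them.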
